A study of Mus musculus with 15 samples.

Results

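Src family kinases and the proteins that hold them back were examined in mouse bone marrow-derived macrophages (BMDMs) with and without the histone variant H3.3. The group held 8 genes, which were 4 Src family kinases (Src, Fgr, Lyn and Fyn), the kinase Csk that restrains them, the kinase Syk that acts next in the pathway, the phosphatase gene Ptpn6 and the inhibitory receptor gene Sirpa. They were chosen by name, with earlier results of these data known. Csk was chosen by its H3K27ac difference in these same libraries, so H3K27ac is given here as a description with no test. All 8 were found among 21938 protein-coding genes of GENCODE M21 on mm10. The series held 15 samples, of which 10 had a list of called regions from CUT&RUN, a method that cuts and sequences DNA bound by an antibody, and the 5 IgG controls had no list here. WT cells came from H3f3a fl/fl, H3f3b fl/fl mice without Cre, and cKO cells from mice with the same floxed alleles plus LysM-cre on both alleles. LysM-cre acts in the myeloid lineage through the Lyz2 gene, and the study stated that H3f3b was deleted fully in some cKO samples and in part in others. The third line, H3.3-HA, came from H3f3b-HA knock-in mice, in which H3.3 carries an HA tag. All lines were on a C57BL/6 background and were grown for 6 to 8 days in medium with 20% L929-conditioned medium and 10% FBS. The study used young adult mice of both sexes, and the sex behind each library was not given. Each group had 2 libraries called biological replicates. Nothing told whether they came from separate animals, so a p here measures only the spread between these samples.

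Src family kinases sit at the inner face of the plasma membrane and start signalling from integrins, Fc receptors and other receptors by phosphorylating tyrosines. Csk phosphorylates a tyrosine in their tail, which folds the kinase into a closed, inactive form, and membrane phosphatases such as CD45 remove that phosphate again. In macrophages the active kinases also phosphorylate inhibitory receptors such as SIRPα, which then recruit the phosphatase encoded by Ptpn6, so the same family feeds both the signal and its brake. H3K27ac, acetylation of lysine 27 of histone H3, marks active promoters and enhancers, and H3K36me3, trimethylation of lysine 36, is laid down over the bodies of transcribed genes.

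The value used throughout is the covered share, the percentage of a gene's window that lay inside called regions of a library, where the window was the gene body plus 5 kb upstream of its start. The 10 libraries held 5365319 to 29988098 tags, and the lists held no count per region, so a base outside a region was below the caller's threshold and not shown to lack the mark. The 2 cKO H3K27ac lists covered 46.2 and 62 Mb, against 89.6 and 74.8 Mb in WT, and H3K36me3 covered 90.7 Mb in cKO replicate 1 against 163.5 to 170.5 Mb in the other 3 libraries of that mark. The windows of the floxed genes H3f3a and H3f3b carried regions of both marks in every WT and cKO library. In H3f3b, H3K27ac covered 58.3% and 52.3% in WT and 65.2% and 85.5% in cKO. H3K36me3 covered 5.84% and 7.78% of it in WT and 21.7% and 24.2% in cKO. In H3f3a, H3K27ac covered 11.9% in both WT libraries and 22.4% and 19.7% in cKO. H3K36me3 covered 52.3% and 56.3% of it in WT and 49.1% and 52.8% in cKO. The floxed bases were not examined apart from the rest of the window, and the H3f3b window overlaps Unk. These values thus could not show the deletion, and directions rest on the labels. Of 7 macrophage marker genes, 6 or 7 carried H3K27ac regions in each library and 7 carried H3K36me3 regions. Cd3e, Ly6g and Col1a1, defining genes of T cells, neutrophils and fibroblasts, carried no H3K27ac region in any library. Among B cell genes Pax5 carried none, whereas Ms4a1 was covered to 21.2% and 19.7% in WT and 14.6% and 25.8% in cKO, and Cd79b to 9.1% and 5.95% in WT and 0% and 17.4% in cKO. Over whole marker lists, 1 of 5 T cell genes (Cd3d) had H3K27ac regions in both cKO libraries and in no WT library, with 0.903 and 1.4 kb in all, and 1 of 4 megakaryocyte genes (Pf4) had them in both WT libraries and in no cKO library. Neutrophil genes with a region numbered 1 to 2 of 5 and fibroblast genes 0 to 1 of 5. Whether these differences bear on the results was not tested. In bulk chromatin a change in the share of cells with a mark cannot be told apart from a change of the mark within each cell.

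Csk, the kinase that switches Src family kinases off, carried H3K27ac over a larger part of its gene in cKO than in WT cells, while Lyn, Fyn, Syk and Sirpa carried less. In Csk, H3K27ac covered 19.8% and 19.4% of the window in the 2 WT libraries and 34.9% and 46% in the 2 cKO libraries. Both cKO libraries were above both WT libraries, and the WT mean of 19.6% ± 0.285 compared with a cKO mean of 40.5% ± 7.81 (SD over 2 libraries). The difference was 20.9 percentage points, a ratio of 2.06. The median difference over the 12767 genes with an H3K27ac region in any of the 4 libraries was -1.02 points, and Csk stood at rank 225 of them from the top by points and at rank 39 by added bases. Csk lies on the minus strand at chr9:57626646-57653631 (gene ENSMUSG00000032312.7), is 27 kb long, and no other annotated gene overlapped its window.

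The added acetylation lay inside the gene and not at its upstream start. H3K27ac near the upstream start, at which transcript Csk-204 begins, was alike in all 4 libraries, with regions that ran from 0.043 to 3.63 kb and 0.086 to 3.58 kb in WT and from 0.32 to 3.41 kb and 0.238 to 3.59 kb in cKO. Between 4 and 17 kb from the start, neither WT library had any H3K27ac region, whereas 7454 bp (57.3%) was covered in cKO replicate 1 and 9328 bp (71.8%) in replicate 2. This stretch held 2 merged regions that both cKO libraries and neither WT library carried, called gained here. The first, chr9:57640546-57647661, was 7116 bp long, of which 659 bp was exon and 6457 bp intron. It spanned the internal start at position 57645653, 7.98 kb into the gene, where transcript Csk-201 begins, together with the starts of Csk-206 and Csk-207. The window from 1 kb before to 100 bp after that internal start was covered to 100% in both cKO libraries and to 0% in both WT libraries. The second gained region, chr9:57637063-57640203, was 3141 bp long and lay wholly in intron. At the 3′ side the order was the other way, since from 17 kb to the end of the gene WT libraries covered 27.5% and 27.2% and cKO libraries 6.34% and 20.3%. Coding transcripts Csk-209 and Csk-208 begin in that part, at 19.6 and 22.1 kb. The window from 1 kb before to 100 bp after the start of Csk-208 was covered to 77.9% and 90.7% in WT and to 0% in both cKO libraries. For Csk-209 it was 88.7% and 82.8% in WT against 57.5% and 58.1% in cKO. The gain thus lay at the internal start at 7.98 kb and the intron after it, while both later starts had less H3K27ac in cKO.

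The bases just before the internal start at 7.98 kb lay in H3K27ac regions in both cKO libraries and neither WT library. At the upstream start the regions lay downstream of it in all 4 libraries, and the bases before it lay outside them. The stretch before each of these starts is therefore shown. Each is the 250 bases upstream of a RefSeq start on GRCm38.p6, minus strand, at chr9:57653632-57653881 for the gene start and chr9:57645654-57645903 for the internal start, and RefSeq promoters were at hand for 6 of the 8 genes. Capitals mark GAGGAA on either strand, the core bound by PU.1 and other ETS factors of macrophages.
Csk gene start: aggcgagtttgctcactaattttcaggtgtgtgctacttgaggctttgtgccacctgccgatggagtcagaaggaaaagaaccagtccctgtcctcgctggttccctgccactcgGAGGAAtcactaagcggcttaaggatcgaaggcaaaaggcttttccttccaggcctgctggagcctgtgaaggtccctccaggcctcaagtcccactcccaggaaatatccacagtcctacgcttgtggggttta
Csk internal start: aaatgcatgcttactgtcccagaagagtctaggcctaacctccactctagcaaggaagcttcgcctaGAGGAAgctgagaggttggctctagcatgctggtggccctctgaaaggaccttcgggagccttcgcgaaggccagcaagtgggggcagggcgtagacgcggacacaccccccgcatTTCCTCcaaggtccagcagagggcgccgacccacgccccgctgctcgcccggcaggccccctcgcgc
In all 5 motifs were searched on both strands, and no match overlapped another. Besides GAGGAA these were the AP-1 site spelled TGANTCA and the GC box spelled GGGCGG. The C/EBP site was spelled TTGCNNAA and the interferon response element GAAANNGAA. The stretch before the gene start held 1 GAGGAA, with its first base at -135 from the start, and the one before the internal start held 2, with first bases at -183 and -67. GAGGAA was present in 23.3% of 32817 such 250-base stretches, and none of the other 4 motifs occurred in either Csk stretch. The internal start had 16 CpG dinucleotides and 64% GC and the gene start 7 CpG and 54% GC, beside medians of 6 and 52.4% over all these stretches. A match is a description of letters and not evidence of binding.

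**Figure D1:**
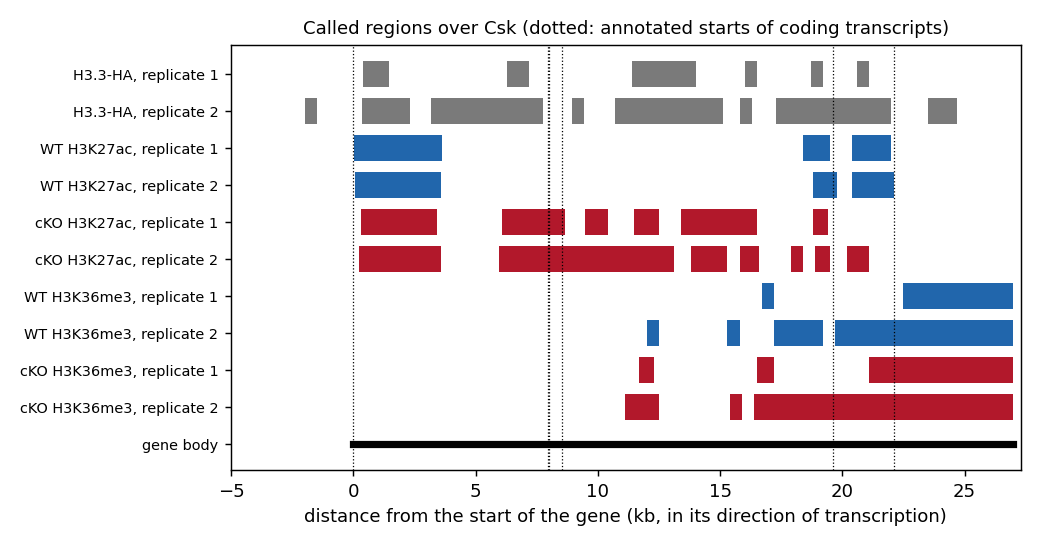
Called regions over Csk in each of the 10 libraries, with distance from the gene start in kb on the horizontal axis, 1 row a library, the gene body as a black bar and annotated starts as dotted lines. H3K27ac regions between 4 and 17 kb appear in both cKO rows and in neither WT row, while the regions in the first 4 kb appear in all 4 rows.

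H3.3 itself was found over Csk. The H3.3-HA regions covered 19% and 57.3% of the window in the 2 libraries, with regions on both sides of the internal start and none at the start position itself. Of the 6525 bp acetylated in both cKO and neither WT library, 38.2% lay in H3.3-HA regions of replicate 1 and 66.6% in those of replicate 2. The 3582 bp acetylated in all 4 libraries had 38.8% and 75%, close to the former in each library. The tagged libraries came from cells with H3.3, so they show H3.3 in cells that have it and not in cKO cells.

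The 4 kinases that Csk restrains did not share its difference. Their mean H3K27ac share was 18.9% and 14.2% in WT and 10.6% and 14.1% in cKO, a difference of -4.17 points with libraries that barely separated, at 14.2% and 14.1%. Taken within each library, Csk minus this mean was 0.901 and 5.21 points in WT and 24.3 and 31.9 points in cKO, a difference of 25 points. The kinases differed widely among themselves in how much of each gene was acetylated.

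Lyn, a kinase abundant in macrophages that signals both for and against activation, had a smaller acetylated share in cKO. H3K27ac covered 47.7% and 37% of its 140.0 kb window in WT and 29.7% and 35.2% in cKO, a difference of -9.89 points with no overlap between the genotypes. The second WT and second cKO library lay close together. Lyn, at chr4:3678115-3813122 on the plus strand, carried 2 intronic regions present in both WT and neither cKO library, called lost here, of 1501 and 1242 bp at 24.1 and 121.3 kb from its start. Its start position lay in an H3K27ac region in all 4 libraries, and the difference was in the body. Of its 4 equal parts, part 3 had 44.6% and 35.3% in WT and 18.5% and 25.3% in cKO, and the genotypes overlapped in the other 3. Without WT replicate 2 there were 8 lost regions in place of 2, without cKO replicate 2 also 8, and without WT replicate 1 there were 6.

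Fyn, a broadly expressed kinase of the family, also had a smaller acetylated share in cKO. H3K27ac covered 16.8% and 12.5% of its window in WT and 6.77% and 7.56% in cKO, a difference of -7.5 points and a ratio of 0.489. The libraries did not overlap. Fyn, at chr10:39368855-39565381 on the plus strand, carried 5 lost regions of 501 to 1374 bp, all in introns between 33.9 and 124.2 kb from the start, and none gained. In part 2 of 4 of its body the share was 34.9% and 31% in WT and 15.4% and 14.5% in cKO, and in part 3 8.84% and 4.02% in WT and 0% in both cKO libraries. In parts 1 and 4 the genotypes were not apart. Without WT replicate 2 there were 17 lost regions in place of 5.

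Fgr, a kinase found mostly in myeloid cells, and Src, the founding member with a large role in osteoclasts, had little H3K27ac and overlapping genotypes. In Fgr (chr4:132974095-133001910, plus strand) the share was 9.62% and 5.96% in WT and 5.23% and 10.4% in cKO. In Src (chr2:157418444-157471862, plus strand) it was 1.52% and 1.33% in WT and 0.858% and 3.36% in cKO, and no start of a coding Src transcript lay in a region of any of the 10 libraries. Fgr still carried 1 lost region, chr4:132971234-132972056, 823 bp long with its midpoint at -2.45 kb from the start, and H3.3-HA regions of both libraries covered 100% of it.

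Sirpa encodes SIRPα, the receptor for CD47 that passes an inhibitory signal to the macrophage, and it had the most negative H3K27ac difference of the 8 genes. H3K27ac covered 64.2% and 58.1% of its window in WT and 33.7% and 38.2% in cKO, giving means of 61.1% ± 4.34 and 35.9% ± 3.19 (SD over 2 libraries) and a difference of -25.2 points. Both cKO libraries were far below both WT libraries. Sirpa lies at chr2:129592835-129632228 on the plus strand, and 98.2% of genes had a higher difference.

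The difference in Sirpa lay away from the start. In part 1 of 4 of the body H3K27ac covered 99.6% and 99.6% in WT and 79.6% and 100% in cKO. Part 2 had 85.2% and 69.7% in WT against 31% and 26% in cKO, and part 4 had 47.8% and 39.8% against 5.09% and 9.17%. Around the start the order was the other way, and a gap in the WT libraries there was covered in cKO. One region of 9085 bp in cKO replicate 1 and one of 14040 bp in replicate 2 ran across the start, and the window from 1 kb before to 100 bp after it was covered to 24.4% and 29.3% in WT and to 100% in both cKO libraries.

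**Figure D2:**
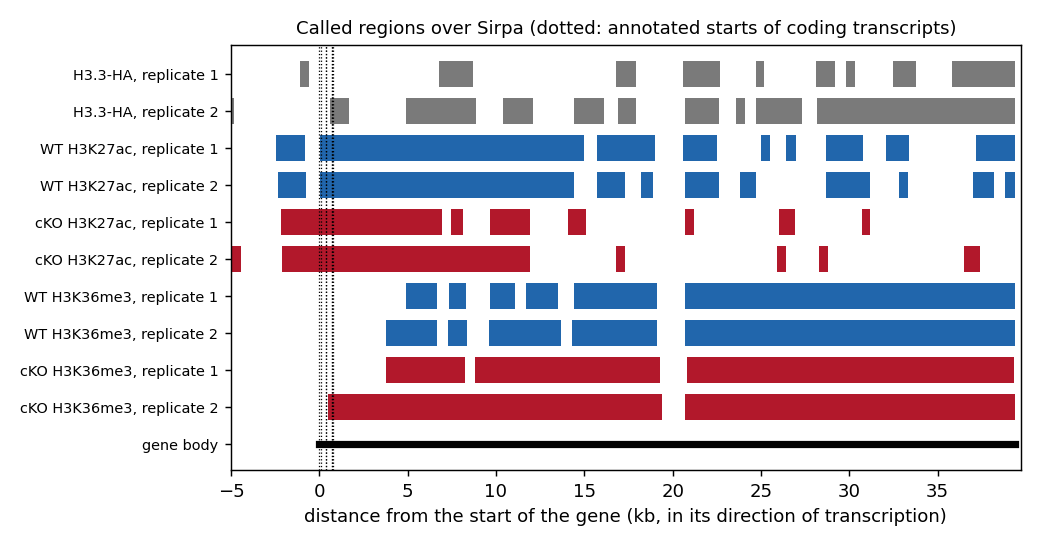
Called regions over Sirpa in each of the 10 libraries, with distance from the gene start in kb on the horizontal axis, 1 row a library, the gene body as a black bar and annotated starts as dotted lines. In the cKO H3K27ac rows a region crosses the start and short regions lie beyond 11.9 kb, whereas H3K36me3 rows are filled along the body in both genotypes.

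The one lost merged region of Sirpa, chr2:129624917-129626205, was 1289 bp of intron at 32.7 kb from the start, and H3.3-HA regions covered 70.9% and 100% of it. With 1 library left out Sirpa had 2 or 3 lost regions, the most without WT replicate 1. Its central 300 bases (chr2:129625411-129625710, plus strand, GRCm38.p6) are shown with those of the lost region upstream of Fgr (chr4:132971495-132971794, plus strand), since both were acetylated and held H3.3 in cells with H3.3. Capitals mark TGANTCA, the AP-1 site, and GAGGAA on either strand.
Sirpa lost region: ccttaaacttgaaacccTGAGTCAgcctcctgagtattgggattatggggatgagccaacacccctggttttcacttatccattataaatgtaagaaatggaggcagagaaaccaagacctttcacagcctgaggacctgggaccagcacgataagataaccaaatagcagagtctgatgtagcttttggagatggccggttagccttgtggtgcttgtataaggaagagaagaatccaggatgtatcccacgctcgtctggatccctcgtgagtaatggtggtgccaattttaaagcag
Fgr lost region: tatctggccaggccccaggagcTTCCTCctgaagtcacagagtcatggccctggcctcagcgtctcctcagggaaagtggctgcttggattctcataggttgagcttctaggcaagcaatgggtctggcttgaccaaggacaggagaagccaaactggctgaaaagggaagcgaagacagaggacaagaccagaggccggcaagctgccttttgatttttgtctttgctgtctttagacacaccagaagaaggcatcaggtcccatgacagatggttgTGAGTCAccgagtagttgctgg
Each held 1 TGANTCA, and the Fgr region also held 1 GAGGAA on the minus strand. The central 300 bases of the second gained region of Csk, searched in the same way and not shown, held no match to any motif. TGANTCA was present in the central 300 bases of 13.4% of 12771 lost H3K27ac regions and of 11.1% of 2995 gained ones, and GAGGAA in 30.1% and 30%.

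Syk, the kinase that docks on phosphorylated ITAM motifs once Src family kinases have acted, had a smaller acetylated share in cKO, as Lyn had. H3K27ac covered 48.6% and 41.8% of its window in WT and 27.5% and 39.6% in cKO, a difference of -11.6 points without overlap. With 20 kb added on both sides the difference was -5.93 points and the genotypes overlapped. The gap between the lower WT and the higher cKO library was small beside the spread between the 2 cKO libraries. Syk, at chr13:52583173-52648792 on the plus strand, carried no merged region that was gained or lost, and its 3 annotated coding starts lay in H3K27ac regions in all 4 libraries. Leaving out WT replicate 2 gave Syk 3 of each kind, and leaving out any of the other 3 libraries gave 0 or 1 of each.

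Ptpn6, which encodes the SH2-domain phosphatase recruited by SIRPα, went the same way as Csk. H3K27ac covered 39.9% and 31.9% of its window in WT and 42.4% and 59.7% in cKO, a difference of 15.2 points, and the lower cKO library stood just above the higher WT library. Ptpn6 lies at chr6:124720707-124738714 on the minus strand, and its window also held parts of Atn1, Gm45234 and Grcc10, so not all of these bases are those of Ptpn6 alone. Over the gene body without the upstream 5 kb the difference was 12.3 points, also without overlap. With 20 kb added on both sides, or with regions under 1 kb left out, the genotypes overlapped.

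In all, 2 of the 8 genes (Csk and Ptpn6) had both cKO libraries above both WT libraries in H3K27ac, where 17.4% of all genes did, and 4 (Lyn, Fyn, Syk and Sirpa) had both below, where 38.2% did. The rule used this contrast and nothing is read from these counts. When every list was cut to the same number of regions, the shares over all genes were 25% and 31.3% and the calls of the 8 genes were the same 2 and 4. With cKO replicate 1 left out 4 genes were above and 4 below, and with cKO replicate 2 left out 2 were above and 6 below. At least 1 gained region lay in the window of 1 of the 8 genes and of 17.3% of all genes, and at least 1 lost region in those of 4 of the 8 genes and of 37.3%.

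**Figure D3:**
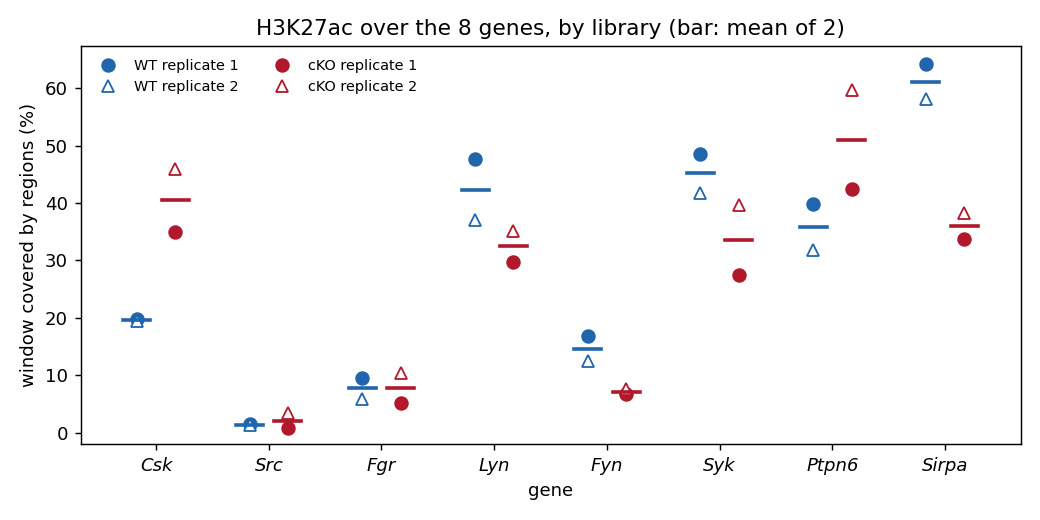
Percentage of each gene's window covered by H3K27ac regions, for WT (blue) and cKO (red) libraries, with circles for replicate 1, triangles for replicate 2 and bars for the mean of 2. Csk and Ptpn6 are higher in both cKO libraries, and Lyn, Fyn, Syk and Sirpa are lower in both.

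H3K36me3, which played no part in choosing Csk, did not separate the genotypes at Csk. It covered 15.7% and 32.1% of the window in WT and 22.6% and 38.8% in cKO, a difference of 6.77 points that was smaller than the pooled SD of 11.5 (exact two-sided permutation test, p = 0.667). With 2 libraries against 2 this test cannot give a p below 0.333. Replicate 2 was the higher library in both genotypes, and each cKO library was above the WT library of its number. H3K36me3 lay at the far end of Csk, where from 17 kb on it covered 47.6% and 92.8% in WT and 60.8% and 100% in cKO, and none lay in the first 4 kb in any library.

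The kinases had a mean H3K36me3 share of 13.9% and 15.1% in WT and 11.3% and 21.1% in cKO, a difference of 1.7 points (exact permutation test, p = 1). Csk minus that mean differed by 5.07 points between genotypes with a pooled SD of 8.23 (exact permutation test, p = 0.667), so the contrast between Csk and its substrates was not seen in this mark beyond the spread of libraries. Lyn had 41.6% and 44.2% in WT and 40.4% and 66.3% in cKO, and Fyn 12.9% and 14.6% against 4.71% and 18%, each with overlap. Src had 1.09% in WT replicate 1 and Fgr 1.53% in WT replicate 2, and neither had any H3K36me3 region in the other 3 libraries. Among the kinases the mark lay mainly over Lyn.

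Sirpa was the only one of the 8 genes whose H3K36me3 libraries did not overlap, and it went opposite to its H3K27ac. H3K36me3 covered 66.2% and 70.9% of its window in WT and 75.6% and 84.7% in cKO, a difference of 11.6 points (exact permutation test, p = 0.333, the smallest possible). In part 1 of 4 of the body the share was 29.8% and 43% in WT and 56.5% and 95.1% in cKO, whereas part 4 was covered to 99.4% or more in all 4 libraries. The added H3K36me3 thus lay toward the start.

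Syk had 68.6% and 69.8% in WT and 60.3% and 74.2% in cKO, and Ptpn6 30.1% and 41.5% against 29.4% and 52.1%, both with overlap. In part 1 of 4 of Syk H3K36me3 covered 50.7% and 53.4% in WT and 11.6% and 36.4% in cKO. Part 3 was covered to 91.9% or more in all 4 libraries. In part 4 the order was the other way, with 86.7% and 90.3% in WT and 91.8% and 100% in cKO. Both cKO libraries were above both WT libraries in 1 of 8 genes, beside 7.85% of the 11975 genes tested, and below in 0 of 8, beside 37.7%. The median difference over all genes tested was -4.99 points. These counts moved with cKO replicate 1, the library with the least covered length. Without it 6 of 8 genes were above and none below, and without cKO replicate 2 there were 4 below and 1 above. Without WT replicate 1 or WT replicate 2 there were 2 and 3 genes without overlap in place of 1.

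**Figure D4:**
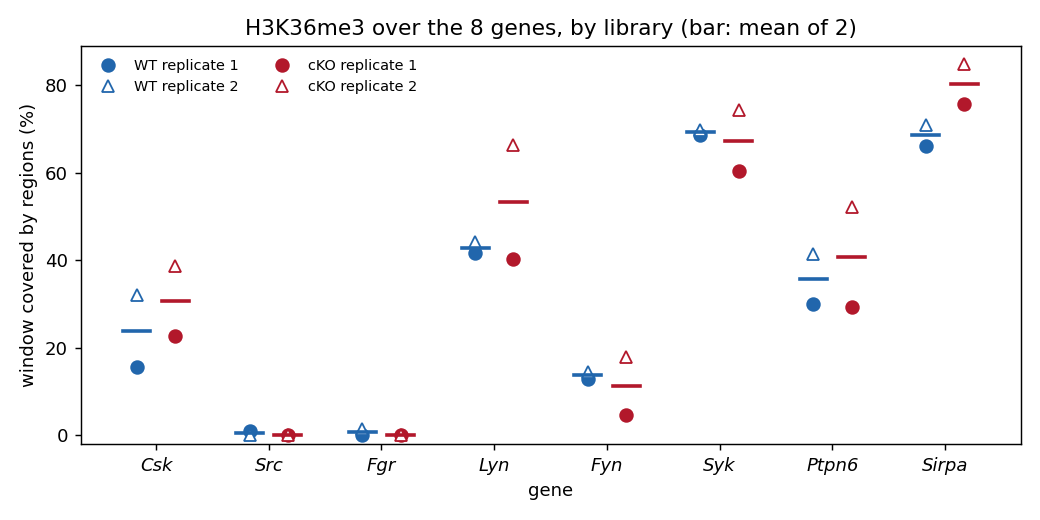
Percentage of each gene's window covered by H3K36me3 regions, for WT (blue) and cKO (red) libraries, with circles for replicate 1, triangles for replicate 2 and bars for the mean of 2. The genotypes overlap in every gene but Sirpa, and the 2 cKO libraries lie farther apart in Csk, Lyn, Fyn, Syk and Ptpn6 than in Sirpa.

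Merged H3K36me3 regions changed in both libraries of a genotype at 2 kinases. Lyn held 5 gained regions of 880 to 4006 bp, of which 4 began between 34.2 and 130.8 kb from its start and the fifth ran past its 3′ end. Fyn held 3 lost regions of 844 to 1546 bp, all in introns near its 3′ end between 171.2 and 184.8 kb. With 1 H3K36me3 library left out Lyn had 6 to 13 gained regions, the most without cKO replicate 1, and Fyn 3 to 6 lost ones. A gained region lay in the windows of 1 of the 8 genes and of 8.47% of all genes, and a lost one in those of 1 of the 8 and of 23.6%. At regions of 1 kb or more there was 1 gained region and none lost.

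H3.3-HA regions lay over all 8 genes in both libraries, where 44.2% of all 21938 protein-coding genes had a region in both. That share was not matched for window length, which ran from 23 kb in Ptpn6 to 201.5 kb in Fyn. Over genes with a region in either library the median covered share was 5.77% in replicate 1 and 7.75% in replicate 2, and Src and Fyn lay near it. The order by mean covered share was Sirpa (28.4% and 58.1%), Ptpn6 (20.6% and 63.6%), Csk (19% and 57.3%), Lyn (29.8% and 38.1%), Syk (23.7% and 24.2%), Fgr (10.7% and 27%), Fyn (7.01% and 8.87%) and Src (2.08% and 8.09%). Of neighbours in this order, the libraries did not overlap between Lyn and Syk or between Fgr and Fyn, and overlapped in the other pairs. The ranges of Csk and Ptpn6 also took in Syk and overlapped that of Fgr. Replicate 2 was higher in every gene. At bases that lost H3K27ac in Sirpa (9262 bp in both WT and neither cKO library), H3.3-HA covered 44% and 60.8%, and at the 11142 bp acetylated in all 4 libraries 9.96% and 46.5%. In Lyn the order was the reverse, with 23.7% and 52.1% at the 11648 bp lost and 69.9% and 75% at the 29010 bp kept. Sirpa and Lyn thus differed in where H3.3 lay beside the acetylation that WT alone carried, and this was not tested. In Csk, Syk and Fyn the 2 libraries gave opposite orders. Syk had 36.1% and 66% at bases lost and 48% and 28.4% at bases kept, and Fyn 44.6% and 43.6% against 40.6% and 56.3%. Fgr and Ptpn6 went as Sirpa, at 655 and 144 bp lost.

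**Figure D5:**
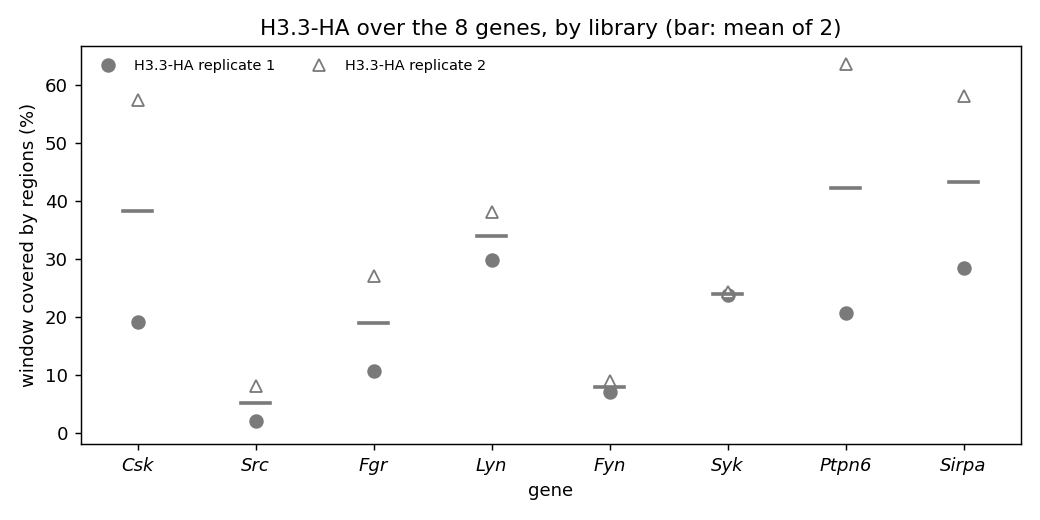
Percentage of each gene's window covered by H3.3-HA regions in replicate 1 (circle) and replicate 2 (triangle), with a bar for the mean of 2. Replicate 2 is higher in every gene, and Src and Fyn are the lowest.

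Other genes of the pathway are given from 4 lists, which were chosen with earlier results of these data known. Their counts are a description, to be read against the shares over all genes. These shares were 17.4% above and 38.2% below in H3K27ac and 7.85% above and 37.7% below in H3K36me3. Of the 7 partners of Csk and substrate brakes tested, 1 was above and 3 below in H3K27ac, near those shares, with a median of -6.24 points. The adaptor gene Dok3 had 0% and 16.8% in WT and 17.2% and 21.9% in cKO, though its window overlaps Ddx41. Cbl and Cblb, which encode ubiquitin ligases that mark active kinases for removal, differed by -12.8 and -14.2 points, both below WT. All 5 phosphatases that act on the kinase tail were tested in H3K27ac and 3 were below, beside 38.2% of all genes, and none above, with a median of -13.7 points beside -1.02 over all genes. Ptprc, the gene of CD45, had 45.4% and 43.3% in WT and 27.3% and 34% in cKO. Ptpra, encoding another receptor phosphatase, had 63.2% and 53.5% against 30.4% and 33.4%, and Ptprj had 43% and 35.1% against 17.1% and 19.1%. These 3 phosphatases open the kinases that Csk closes.

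In the list of inhibitory receptors, their ligand and lipid phosphatase, most but not all genes tested had more H3K36me3 in cKO. This list too was chosen with earlier results of these data known, so its counts were not tested and nothing is read from them. Of 12 tested, 8 were above, beside 7.85% of all genes, and 1 below, beside 37.7%, with a median of 8.96 points beside -4.99 over all genes. Cd300lf, an inhibitory lipid receptor, had 11.9% and 25.4% in WT and 64.4% and 80% in cKO, with Rab37 overlapping its window. Lilrb4a had 39.2% and 39.6% against 69.4% and 72.5%, and Lair1, a collagen receptor, 24.4% and 27.7% against 40.2% and 59.2%. Pirb and Fcgr2b were higher by 12.8 and 11.2 points, and Clec4a2 differed by -16.2 points. Lilrb4a and Pirb have near-identical paralogs beside them, so reads placed there are uncertain. In H3K27ac the same list had 4 of 13 above and 3 below, beside 17.4% and 38.2% of all genes, and Cd300a was higher, at 50% and 39% in WT and 54.8% and 77.9% in cKO.

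The list of ITAM adaptors and proteins downstream of Syk had 3 of 16 above and 6 below in H3K27ac, close to the 17.4% and 38.2% over all genes, with a median of -1.41 points beside -1.02. Single genes of it are given as values only. The adaptor genes Fyb and Skap2, whose proteins link receptors to integrins, differed by -20.6 and -18.4 points, and Pik3cg and Vav3 by -18.9 and -11.9 points. In H3K36me3 the list had 3 above and 2 below of 16, beside 7.85% and 37.7% of all genes. Tyrobp, which encodes an ITAM adaptor of several myeloid receptors, was higher by 10.4 points. Plcg1, at 13.9% and 16.9% in WT, had no H3K36me3 region in either cKO library, and Zhx3 overlaps its window. In H3K36me3 the partners of Csk and substrate brakes had 0 above and 3 below of 8, with a median of -6.51 points. The phosphatases that act on the kinase tail had 0 above and 2 below of 5, with a median of -2.81 points. Over all genes the median was -4.99 points and 37.7% were below. From these 2 lists, Matk, a relative of Csk, had 20.8% and 21.4% in WT and 0% and 3.25% in cKO. Dok1 differed by -10.3 points, and Ptpn11 had 58% and 55.7% against 15.7% and 48.7%. The windows of Matk and Dok1 overlap Zfr2 and Loxl3.

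The 5 genes nearest to Csk over the 8 H3K27ac and H3K36me3 libraries, by Euclidean distance in covered share, were Krcc1 (16.9 points), Eif5a (18.9), Akt1s1 (19.2), Sirt3 (20.9) and Rpl8 (21.1). Akt1s1 had the widest H3K27ac step between genotype means of these, with 16.3% and 13% in WT and 30.2% and 48.9% in cKO. None of the 5 is a member of the kinase pathway lists.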

How the data were processed

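CUT&RUN libraries of H3.3-HA, WT and cKO BMDMs were analysed from deposited lists of region positions (chromosome, start and end on mm10), which the authors made with cutadapt, Bowtie and HOMER, per the labels and the file headers. HOMER required a fold of 4.0 over the control tags, and the control was the IgG of the same line. The column of scores held 1 value throughout and was not used. The covered share of each window (gene body plus 5 kb upstream, GENCODE M21) was computed with python 3.11.15 and numpy 2.4.6 and tested on simulated data. No count per region was used, so no count model was fitted. WT and cKO were compared with the exact permutation test over libraries for H3K36me3, and as values for H3K27ac. Merged regions joined the 4 lists of a mark where they touched. All 8 genes were named. Pathway genes, apart from some not reported here, were named where WT and cKO libraries did not overlap and differed by 10 points or more, and a gene was tested where any of the 4 libraries had a region in its window. The genes and lists were chosen with earlier results of these data known. Other windows, region widths, list lengths and overlaps were tried, and each library was left out. IgG libraries were not analysed here. Motifs were matched as plain letters.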

Additional observations from a re-analysis of the deposited data

Results flagged for a closer look

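Sirpa was singled out because every cKO library moved one way in H3K27ac and the other way in H3K36me3. The difference between cKO and WT was -25.2 points in H3K27ac and 11.6 points in H3K36me3. The difference between the marks was not tested.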

How the results depend on the processing

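Csk was chosen by its H3K27ac difference, so the alternatives describe that difference and are no support for it. Leaving out a library or pairing by number cannot bring overlap to libraries that had none. The difference was positive and without overlap under every alternative run. It was 9.96 points with 20 kb on both sides and 12.6 with regions of at least 1 kb. Csk minus the kinases was 14 and 15.7 points under these. Left out 1 library at a time, they ranged from 15.3 to 26.4 and from 21.2 to 28.8, and the kinase mean from -6.52 to -1.81. The kinase libraries overlapped in H3K27ac over the gene body only (-3.5) and with regions of at least 1 kb (-3.14). In H3K36me3, leaving out 1 library gave -1.41 to 15 points for Csk, -3.2 to 6.6 for the kinases and -2.52 to 12.7 for Csk minus the kinases, with sign changes without WT replicate 1, without cKO replicate 2 or both. It also gave 2 to 6 genes without overlap in place of 1. With 20 kb on both sides Ptpn6 was at -8.18 and Src at 0.221 in H3K36me3. With 1 library left out, in H3K36me3, Fyn ranged from -9.03 to 4.25, Syk from -8.85 to 5.08, Lyn from -2.45 to 23.5 and Ptpn6 from -6.42 to 16.3. The cause of these moves was not tested.

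The libraries share only replicate numbers, with correlations of their deviations over genes of -0.101 for H3K27ac and 0.104 for H3K36me3. With a replicate block, pairing libraries by number, H3K36me3 had 2 genes (Csk and Sirpa) that moved one way in both pairs in place of 1, with a sign-flip p of 0.5, the smallest that 2 pairs allow. The block left the value of Csk at 6.77 points, and changed no other call. Pairing the numbers crosswise, added after seeing the data, gave the same 2 genes above and 4 below in H3K27ac. Any pairing gives this for genes whose libraries do not overlap, so it is no support.

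The 19 gained and lost regions at the 8 genes became 30 when sharing needed 50% of the merged region, and 25 to 45 with 1 library left out. Csk had 2 to 4 gained H3K27ac regions in every alternative run. It had no lost one in the main run, but 2 when sharing needed 50% of the merged region. With regions of at least 1 kb it also had 2 lost ones, and without cKO H3K27ac replicate 2 it had 1. The lists hold positions only, so depth per region is unknown, and 2 libraries a group cannot give an exact p below 0.333.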
